A study of Homo sapiens with 12 samples.

Results

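The genes described here make cholesterol and control the amount of sterol in the cell. They are the 32 genes whose symbol stands on a list of the route and its regulators, of the 63187 genes in the table, and the rule that picks them uses the symbol alone. The list holds 18 enzymes of the route from acetyl-CoA to cholesterol, 7 genes that sense sterol and control the SREBP transcription factors, 5 genes of sterol transport, storage and efflux, and the 2 LXR receptors. Of the 32 genes, 27 had enough signal to be tested.

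RNA was measured in MDA-MB-231, a breast adenocarcinoma line in long use, of human origin and mesenchymal character, after 36 h in one of 4 media that all held 3% fetal bovine serum. Before that the cells had grown in high-glucose salt solution with 10% serum. The deficient medium held neither glucose nor glutamine, the glucose-only medium held 25 mM glucose without glutamine, the glutamine-only medium held 4 mM glutamine without glucose, and the full medium held 25 mM glucose with 4 mM glutamine. There were 3 libraries per medium, lettered A, B and C, and 12 in all. Separate cultures for A, B and C are not stated in the labels, so the p-values measure only the spread between these libraries, which may be technical.

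Cells build cholesterol from acetyl-CoA through mevalonate, farnesyl diphosphate, squalene and lanosterol. When sterol in the endoplasmic reticulum is low, SCAP escorts the SREBP proteins to the Golgi, where the proteases encoded by MBTPS1 and MBTPS2 release the part that enters the nucleus and switches on the genes of synthesis and uptake. When sterol is plentiful, INSIG proteins hold SCAP back, and oxysterols activate the LXR receptors, which switch on genes of sterol export such as ABCA1 and the E3 ligase gene MYLIP. Glucose and glutamine can both feed the acetyl-CoA from which the route starts, and serum brings sterol from outside.

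The values are normalized counts, the reads of a gene over the size factor of its library. The libraries held 875033 to 1473587 reads, so that 1 read is worth a normalized count of 0.661 to 1.30, and a gene at a level of 10 rests on about that many reads. Of the reads, protein-coding genes took 47.3 ± 4.34% in deficient, 44.4 ± 2.51% in glucose-only, 51.1 ± 3.34% in glutamine-only and 55.4 ± 3.94% in full libraries (SD, n = 3 each). Mitochondrial transcripts took 30.6 ± 2.85% in deficient, 30.1 ± 1.83% in glucose-only, 26.8 ± 1.39% in glutamine-only and 20.9 ± 2.11% in full libraries. Both shares move with the media, and their part in the results was not tested beyond the other scalings given with the results. Markers of fibroblasts (6 of 6), blood cells (6 of 6), adipocytes (3 of 3) and hepatocytes (3 of 3) stayed under a normalized count of 10 in every library, and the mesenchymal marker VIM reached 1047. Of the 9 luminal epithelial markers 5 stayed under 10, ESR1 and CDH1 among them, and KRT18 reached 396. Of the 4 endothelial markers 2 stayed under 10, and PECAM1 reached 19.7.

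A gene was tested where its normalized count reached 10 in 3 or more of the 12 libraries, which 9270 genes passed. All tests below come from limma on log2(normalized count + 1), in 1 fit with a mean for each medium, and p-values are two-sided and Benjamini-Hochberg adjusted over the 9270 genes. Gene positions are those of RefSeq on build GRCh38.p14. A gene is said to have risen or fallen where its adjusted p was under 0.05. Where another setting or a left-out library ended or made a call, it is named with its adjusted p. Protein-coding size factors are those recomputed on nuclear protein-coding genes, a setting chosen after seeing the data, and edgeR and DESeq2 were run on the recovered reads. Changes are log2 differences with their standard error (SE), the first-named medium minus the second, and the added 1 makes the changes of low genes look smaller than they are. In bulk RNA, less RNA per cell and fewer cells that express a gene cannot be told apart.

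The size factors set what counts as unchanged. Scaling every library to an equal total of reads instead shifted the median over all tested genes by -0.39 in deficient, -0.21 in glucose-only and -0.12 in glutamine-only against full cells, and by 0.17 in glucose-only and 0.27 in glutamine-only against deficient cells. The share of called genes that were higher was then, with equal totals against the deposited scaling, 23.6% against 50.8% in deficient against full, 15.5% against 41.2% in glucose-only against full and 31.6% against 48.2% in glutamine-only against full cells. It was 63.4% against 46.4% in glucose-only against deficient, 75.0% against 48.0% in glutamine-only against deficient and 21.3% against 37.9% in glucose-only against glutamine-only cells. Of the 27 tested sterol genes described below, with equal totals 20 fell and 2 rose in deficient against full, 19 fell and none rose in glucose-only against full, and 19 rose and 1 fell in glutamine-only against deficient cells, and no call of the 27 turned its direction. Of all 9270 tested genes, 3777 fell and 1166 rose with equal totals in deficient against full cells. In glucose-only against full cells 2154 fell and 396 rose, and in glutamine-only against deficient cells 2826 rose and 940 fell.

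Most of these genes stood higher in the media that held glutamine than in those that did not, whether or not glucose was there. Of the 27 tested genes, 16 fell in glucose-only against full cells, where glutamine is the missing nutrient, and none rose. The same fit called 13.5% of all tested genes lower and 9.44% higher there. In glutamine-only against deficient cells, where glutamine is the nutrient added, 19 rose and 3 fell, beside 19.9% and 21.6% of all tested genes. In glutamine-only against full cells, where only glucose is missing, 1 fell and 4 rose, beside 11.6% and 10.8%. EBP, HSD17B7 and MVD averaged under 10 over the 12 libraries, and EBP and HSD17B7 were tested only through media where they were high. ACAT2, MVD, SQLE and TM7SF2 would also not have reached 10 in 3 libraries without those with glutamine. All of these are counted here and below, and their differences between media with and without glutamine are a description. ACAT2, SQLE and TM7SF2 averaged 10 or more, so the next reading still holds them. Among the 24 sterol genes that averaged 10 or more, a reading chosen after seeing the data, 15 fell and none rose in glucose-only against full cells, beside 14.2% and 9.80% of the 8349 such genes. In glutamine-only against deficient cells 17 of these rose and 3 fell, beside 20.2% and 22.8%. The summed normalized count of the 18 synthesis enzymes was 298 ± 11.7 in deficient, 246 ± 16.2 in glucose-only, 709 ± 23.5 in glutamine-only and 695 ± 34.3 in full libraries (SD, n = 3 each). The sums of the glutamine-only and full libraries overlapped, and every one of them was above every sum without glutamine.

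**Figure D1:**
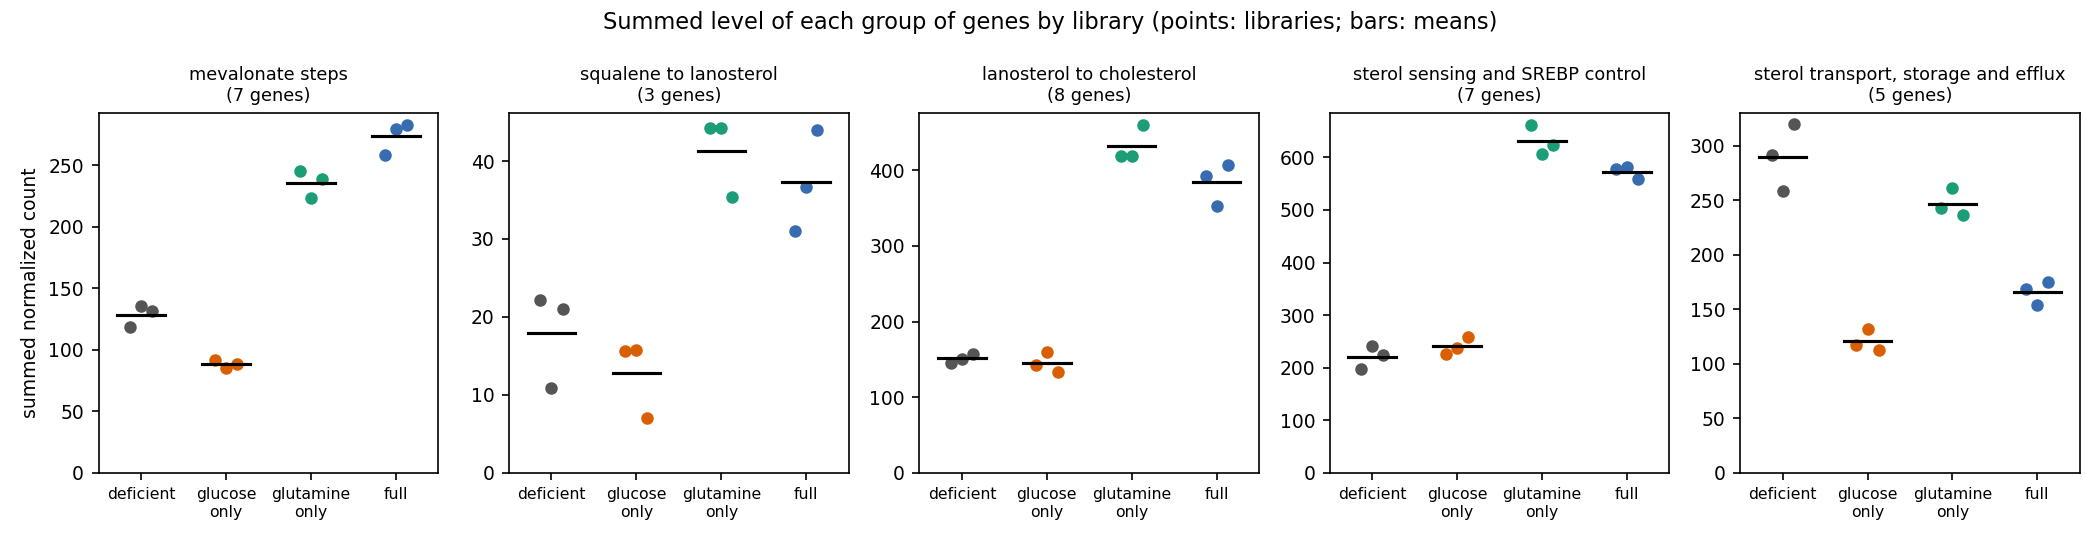
Summed normalized count (y axis, from 0, a scale for each panel) of each group of genes in every library of the 4 media (x axis); points are libraries and bars their means. In 4 of the 5 panels the libraries with glutamine stand above those without, and in the panel of transport, storage and efflux genes the deficient libraries stand with the highest mean, 290.0.

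Among the 7 genes of sterol sensing and SREBP control, 6 fell in deficient against full cells, 4 fell in glucose-only against full cells and 6 rose in glutamine-only against deficient cells, beside 25.5%, 13.5% and 19.9% of all genes. INSIG1 (ENSG00000186480, chromosome 7, 155297878 to 155310235) encodes a protein that holds SCAP and the SREBPs in the endoplasmic reticulum when sterol is plentiful, and is itself an SREBP target. INSIG1 had normalized counts of 41.7, 50.7 and 62.1 in deficient, 13.2, 24.1 and 19.99 in glucose-only, 277, 269.7 and 293 in glutamine-only and 212, 236 and 233 in full libraries. The 4 media did not overlap, and their order was glucose-only lowest, then deficient, full and glutamine-only. INSIG1 was 11.6-fold lower in glucose-only than in full cells, -3.54 ± 0.16 (adjusted p = 3.82e-16). It was 4.39-fold lower in deficient than in full cells, -2.13 ± 0.16 (adjusted p = 4.23e-12). INSIG1 was 5.41-fold higher in glutamine-only than in deficient cells, 2.44 ± 0.16 (adjusted p = 6.15e-13). The level was lower in glucose-only than in deficient cells, -1.40 ± 0.16 (adjusted p = 3.92e-08). Between glutamine-only and full cells the change was 0.30 ± 0.16 (adjusted p = 0.185), and it passed the threshold with a fit on the 2 media alone or edgeR (adjusted p = 0.0225 and 0.0134).

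SREBF2 (ENSG00000198911, chromosome 22, 41833105 to 41907305) encodes SREBP-2, the factor that mainly drives cholesterol synthesis genes. SREBF2 had normalized counts of 27.3, 42.3 and 28.7 in deficient, 34.9, 44.01 and 47.03 in glucose-only, 111, 103 and 107 in glutamine-only and 115, 105 and 94.5 in full libraries. All 6 libraries with glutamine stood above all 6 without it, while deficient overlapped glucose-only and glutamine-only overlapped full. It fell by 1.67 on the log2 scale in deficient against full cells (SE 0.16, adjusted p = 6.74e-10) and was at -1.31 ± 0.16 (adjusted p = 3.36e-07) in glucose-only against full cells. In glutamine-only against deficient cells it rose by 1.70 ± 0.16 (adjusted p = 1.09e-09). In glucose-only against deficient cells SREBF2 was at 0.36 ± 0.16 (adjusted p = 0.06396), and it passed the threshold without deficient B or glucose-only A (adjusted p = 0.00546 and 0.0244) or with equal totals, quantile normalization or protein-coding size factors (adjusted p = 0.01002 to 0.0488).

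SREBF1 (ENSG00000072310, chromosome 17, 17811334 to 17836986) encodes SREBP-1, known mainly for fatty acid synthesis genes. SREBF1 had normalized counts of 26.03, 33.8 and 30.3 in deficient, 38.5, 29.3 and 50.6 in glucose-only, 89.3, 91.5 and 90.4 in glutamine-only and 58.8, 63.9 and 46.8 in full libraries. The glutamine-only libraries stood above all others, the full libraries overlapped the glucose-only ones, and the deficient libraries overlapped the glucose-only ones as well. SREBF1 rose in glutamine-only cells against full, 0.68 ± 0.18 (adjusted p = 0.00528), and against deficient, 1.57 ± 0.18 (adjusted p = 4.18e-08). It fell in deficient against full cells, -0.89 ± 0.18 (adjusted p = 0.000125). In glucose-only against full cells it was called lower, -0.53 ± 0.18 (adjusted p = 0.0294), but not without glucose-only A, glucose-only B, full A or full B (adjusted p = 0.0644 to 0.204) or with quantile normalization, no filter, a fit on the 2 media alone, DESeq2 or protein-coding size factors (adjusted p = 0.0502 to 0.148). In glucose-only against deficient cells SREBF1 was at 0.36 ± 0.18 (adjusted p = 0.103), and it passed the threshold without glucose-only B (adjusted p = 0.018000) or with equal totals (adjusted p = 0.0199).

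INSIG2 (ENSG00000125629, chromosome 2, 118088471 to 118110997), the second INSIG gene, had normalized counts of 16.9, 20.5 and 17.1 in deficient, 15.7, 28.3 and 24.7 in glucose-only, 42.4, 26.97 and 28.9 in glutamine-only and 66.1, 49.8 and 63.3 in full libraries. The full libraries stood above all others, the glutamine-only and glucose-only libraries overlapped, and the deficient libraries overlapped only the glucose-only ones. INSIG2 fell in all 3 comparisons with full cells, by 1.66 in deficient (adjusted p = 4.78e-07), by 1.38 in glucose-only (adjusted p = 3.90e-05) and by 0.87 in glutamine-only cells (adjusted p = 0.00545), on the log2 scale. INSIG2 was called higher in glutamine-only against deficient cells, 0.79 ± 0.23 (adjusted p = 0.005904), but not without glutamine-only A (adjusted p = 0.05995). SCAP (ENSG00000114650, chromosome 3, 47413681 to 47477127), the escort of the SREBPs, had normalized counts of 29.9, 42.3 and 28.7 in deficient, 40.95, 39.8 and 42.3 in glucose-only, 36.1, 34.7 and 27.03 in glutamine-only and 31.1, 23.5 and 32.1 in full libraries. All 4 media overlapped at least one other, and SCAP passed the threshold in none of the 6 comparisons, with changes between -0.03 and 0.50. In glucose-only against full cells its adjusted p was 0.0635, and it passed with quantile normalization or protein-coding size factors (adjusted p = 0.0381 and 0.0437).

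The proteases that release the SREBPs were lowest in deficient cells. MBTPS1 (ENSG00000140943, chromosome 16, 84053763 to 84116942), the site-1 protease gene, had normalized counts of 45.6, 48.3 and 48.1 in deficient, 72.3, 54.5 and 62.3 in glucose-only, 92.01, 66.5 and 65.2 in glutamine-only and 76.04, 83.7 and 68.8 in full libraries. The deficient libraries were below all others, and the other 3 media overlapped. MBTPS1 fell in deficient against full cells, -0.67 ± 0.15 (adjusted p = 0.000484), and rose in glutamine-only against deficient cells, 0.63 ± 0.15 (adjusted p = 0.00143). Its call in glucose-only against deficient cells, 0.40 ± 0.15 (adjusted p = 0.03404), did not hold without deficient A, deficient B, deficient C, glucose-only A or glucose-only C (adjusted p = 0.0511 to 0.164) or with no filter, a fit on the 2 media alone or DESeq2 (adjusted p = 0.0534 to 0.142). In glucose-only against full cells it was at -0.27 ± 0.15 (adjusted p = 0.197), and it passed with equal totals (adjusted p = 0.0279). MBTPS2 (ENSG00000012174, chromosome X, 21839617 to 21885423), the site-2 protease gene, had normalized counts of 9.11, 2.41 and 8.54 in deficient, 10.8, 17.8 and 11.8 in glucose-only, 13.5, 14.4 and 13.05 in glutamine-only and 18.5, 18.8 and 21.1 in full libraries. The full libraries were above and the deficient libraries below all others, on few reads, and 13.4% of its exonic bases lie in another gene on the same strand. MBTPS2 fell in deficient against full cells, -1.56 ± 0.35 (adjusted p = 0.000522). It was called higher in glucose-only against deficient cells, 1.04 ± 0.35 (adjusted p = 0.0192), but not without deficient B or glucose-only B (adjusted p = 0.191 and 0.101) or with quantile normalization, a fit on the 2 media alone or DESeq2 (adjusted p = 0.0563 to 0.09395). It was called higher in glutamine-only against deficient cells, 1.09 ± 0.35 (adjusted p = 0.0149), but not without deficient B (adjusted p = 0.157) or with DESeq2 (adjusted p = 0.0846).

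**Figure D2:**
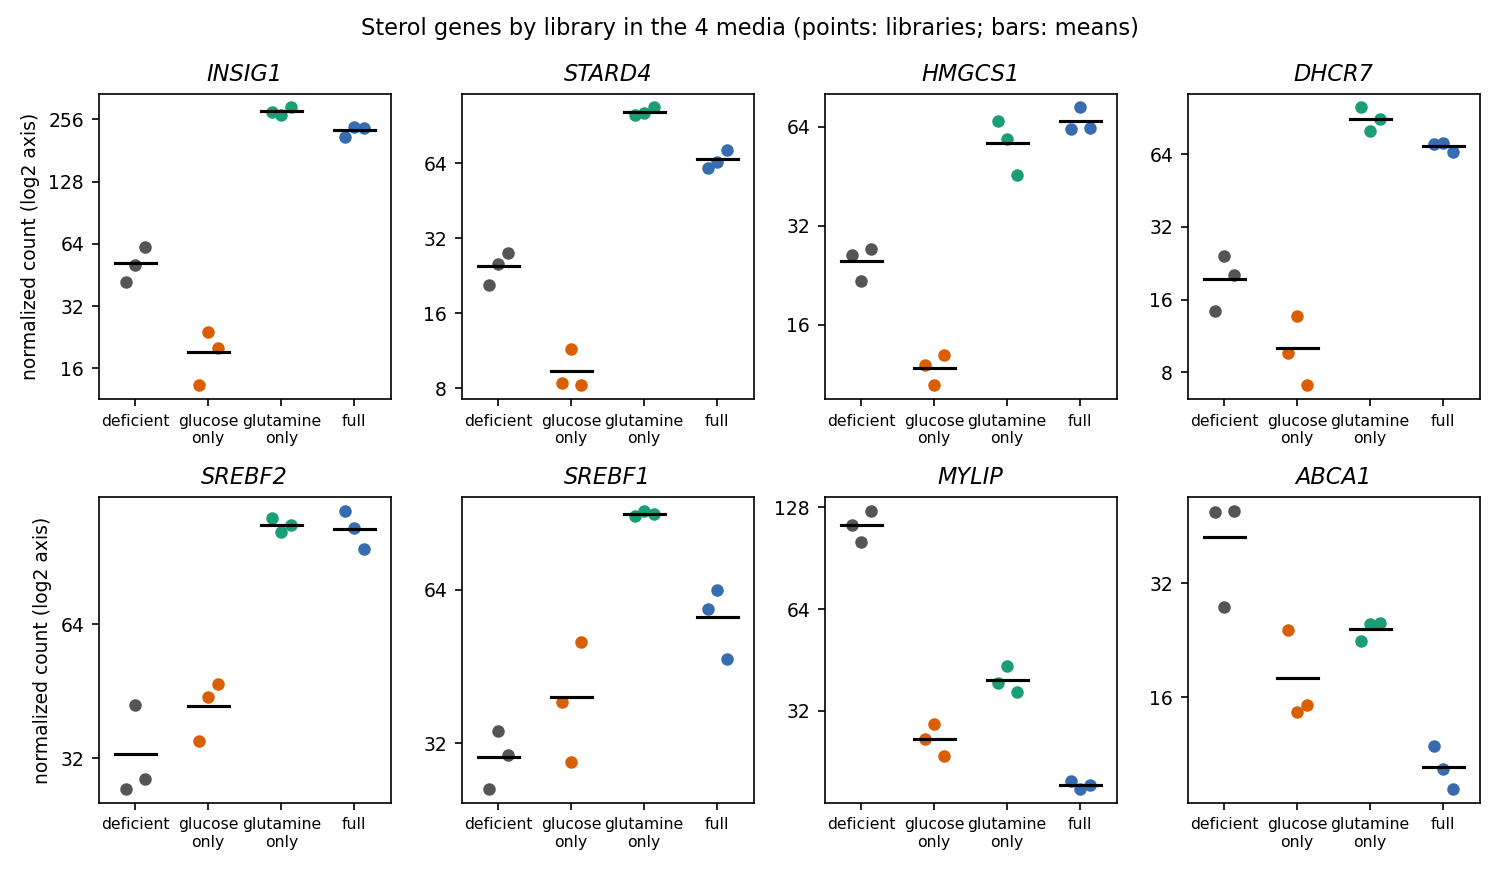
Normalized count (y axis, log2 scale, a scale for each panel) of 8 genes in every library of the 4 media (x axis); points are libraries and bars their means. INSIG1, STARD4, HMGCS1, DHCR7 and SREBF2 stand higher in the 6 libraries with glutamine, with INSIG1 between 212 and 293 there against 13.2 to 62.1 without, while MYLIP and ABCA1 stand highest in the deficient libraries.

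SREBP proteins bind sterol regulatory elements and E-boxes, usually beside sites for NF-Y and Sp1. RefSeq promoter windows of build GRCh38.p14, from 250 bases before to 50 after a gene start, were found for 28 of the 32 genes and gave 37 windows. Both strands were searched for the sterol regulatory element core TCACNCCAC, the palindromic element ATCACGTGA, the E-box CACGTG, which the palindromic element contains, the NF-Y box CCAAT, the Sp1 GC box GGGCGG and the LXR element, a direct repeat with a 4-base spacer. The core was found in 1 of 28 (3.57%) genes, against 1.39% of the 27305 genes with a window, and the palindromic element in 1 of 28 (3.57%), against 0.308%. The E-box stood in 5 of 28 (17.9%), against 8.77%. The NF-Y box stood in 18 of 28 (64.3%), against 39.7%, and the GC box in 25 of 28 (89.3%), against 48.3%. The LXR element matched in none of the 28 genes, against 0.0256% of all. A match is a description of these letters in this window, and says nothing of binding. The 27305 genes were not chosen by type or level, and genes like the 28 in these were not compared. How far the gaps come from that was not tested.

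The windows of INSIG1 and SREBF2 are shown because they alone held an exact match of the core or the palindromic element. That of MYLIP is shown because this LXR target was highest in deficient cells. All 3 were chosen with the values known. Other spellings of the elements, other positions and the 4 genes without a window were not searched. Capitals mark the palindromic element in INSIG1, the core in SREBF2 and the NF-Y box, which reads ATTGG on the strand shown, in all 3. All run 5′ to 3′ on the plus strand of GRCh38.p14.
INSIG1, chr7:155297628-155297927: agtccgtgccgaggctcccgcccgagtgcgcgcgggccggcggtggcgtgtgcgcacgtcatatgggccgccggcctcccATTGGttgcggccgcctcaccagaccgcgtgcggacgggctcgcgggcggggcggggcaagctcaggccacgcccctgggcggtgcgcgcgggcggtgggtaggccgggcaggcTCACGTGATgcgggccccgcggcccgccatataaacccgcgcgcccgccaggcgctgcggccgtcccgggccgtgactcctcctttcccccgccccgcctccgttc
SREBF2, chr22:41832855-41833154: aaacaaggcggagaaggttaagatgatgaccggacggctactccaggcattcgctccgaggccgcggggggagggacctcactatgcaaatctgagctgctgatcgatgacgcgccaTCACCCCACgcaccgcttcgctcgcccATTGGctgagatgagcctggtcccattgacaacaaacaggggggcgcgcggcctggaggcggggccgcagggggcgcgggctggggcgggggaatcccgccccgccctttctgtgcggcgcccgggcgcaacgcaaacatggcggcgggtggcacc
MYLIP, chr6:16128836-16129135: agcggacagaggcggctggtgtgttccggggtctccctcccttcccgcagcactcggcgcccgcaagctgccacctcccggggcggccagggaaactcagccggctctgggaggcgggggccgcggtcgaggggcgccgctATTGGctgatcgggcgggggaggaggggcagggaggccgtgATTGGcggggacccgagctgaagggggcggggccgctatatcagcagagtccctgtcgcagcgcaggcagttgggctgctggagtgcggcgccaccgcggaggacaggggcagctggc
Counted in bases from the gene start, the palindromic element begins at -56 in INSIG1 and the core at -133 in SREBF2, with NF-Y boxes at -170 in INSIG1 and -106 in SREBF2. INSIG1 and SREBF2 both stood higher in all 6 libraries with glutamine than in all 6 without. MYLIP, with NF-Y boxes at -109 and -68 and neither sterol element, had another order, given below with its values. The windows of HMGCS1, MVK, IDI1, FDPS, MSMO1, SC5D, DHCR7 and STARD4 also held neither sterol element. These genes too stood higher in all 6 libraries with glutamine than in all 6 without. Whether the elements go with the order of the media was not tested.

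**Figure D3:**
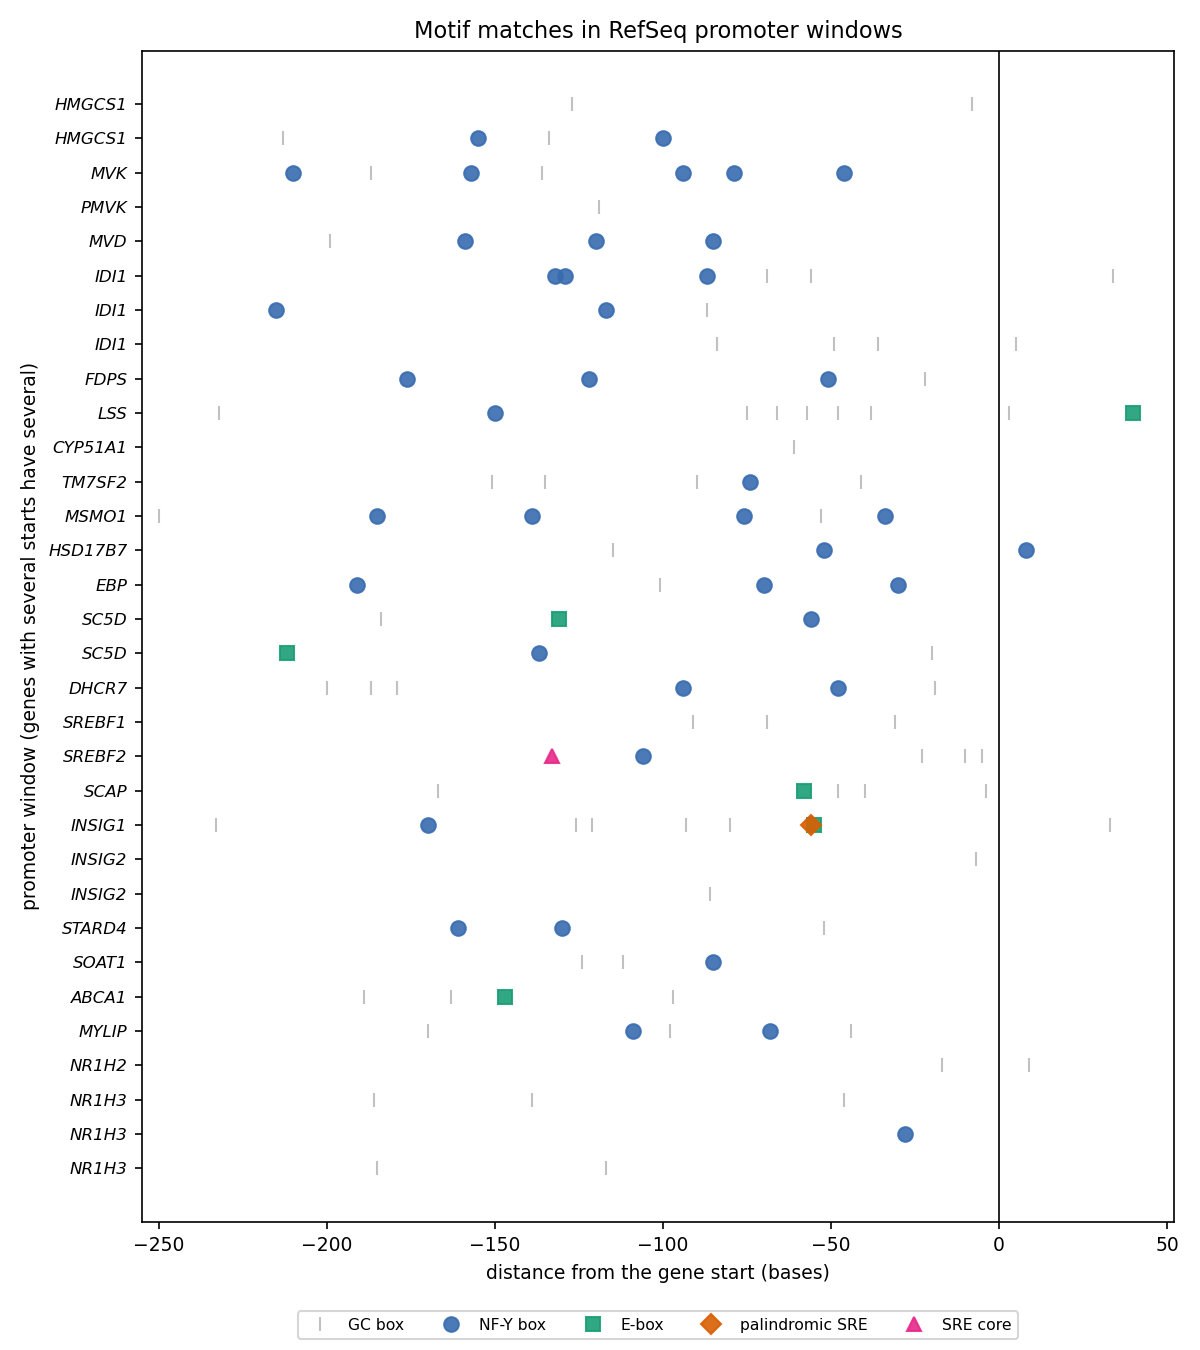
Matches of 5 motifs (symbols) by distance from the gene start in bases (x axis, 0 is the start) in the 32 RefSeq promoter windows with at least 1 match of the 37 searched, 1 row per window (y axis). GC boxes and NF-Y boxes recur across the genes, the palindromic element is drawn once, in INSIG1, and the core once, in SREBF2.

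The 7 genes of the mevalonate steps, from acetyl-CoA to farnesyl diphosphate, summed to 128 ± 8.76 in deficient, 88.2 ± 3.33 in glucose-only, 236 ± 11.2 in glutamine-only and 273 ± 13.002 in full libraries. Against full cells 5 fell in deficient, 4 in glucose-only and none in glutamine-only cells, beside 25.5%, 13.5% and 11.6% of all genes. HMGCS1 (ENSG00000112972, chromosome 5, 43287470 to 43313412) encodes the cytosolic HMG-CoA synthase, which makes the substrate of the rate-limiting step. HMGCS1 had normalized counts of 26.03, 21.7 and 27.2 in deficient, 12.05, 10.5 and 12.9 in glucose-only, 66.8, 58.7 and 45.7 in glutamine-only and 62.8, 73.3 and 63.3 in full libraries. The glucose-only libraries were lowest, the deficient libraries next without overlap, and the glutamine-only and full libraries overlapped at the top. It was 5.27-fold lower in glucose-only than in full cells, -2.40 ± 0.19 (adjusted p = 1.25e-10), and 2.602-fold lower in deficient than in full cells, -1.38 ± 0.19 (adjusted p = 6.95e-07). HMGCS1 also fell in glucose-only against deficient cells, -1.02 ± 0.19 (adjusted p = 8.93e-05), and rose in glutamine-only against deficient cells, 1.15 ± 0.19 (adjusted p = 2.17e-05).

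IDI1 (ENSG00000067064, chromosome 10, 1039152 to 1056704), the isomerase that makes dimethylallyl diphosphate, had normalized counts of 52.1, 53.1 and 58.2 in deficient, 13.2, 17.8 and 17.6 in glucose-only, 86.6, 84.8 and 87.6 in glutamine-only and 78.02, 99.6 and 120.2 in full libraries. Its order was that of HMGCS1, with glucose-only lowest, deficient above it without overlap, and the 2 media with glutamine overlapping at the top. IDI1 was 5.78-fold lower in glucose-only than in full cells, -2.53 ± 0.16 (adjusted p = 1.19e-12), but only 1.78-fold lower in deficient than in full cells, -0.83 ± 0.16 (adjusted p = 9.46e-05). Against deficient cells it fell with glucose alone, -1.70 ± 0.16 (adjusted p = 1.63e-09), and rose with glutamine alone, 0.66 ± 0.16 (adjusted p = 0.00189). FDPS (ENSG00000160752, chromosome 1, 155308866 to 155320665), the farnesyl diphosphate synthase, had normalized counts of 10.4, 13.3 and 11.6 in deficient, 22.9, 20.96 and 23.5 in glucose-only, 25.3, 26.97 and 39.1 in glutamine-only and 40.99, 39.5 and 33.02 in full libraries. Here the deficient libraries were lowest, the glucose-only libraries above them without overlap, and the 2 media with glutamine overlapped. FDPS rose in glucose-only against deficient cells, 0.88 ± 0.23 (adjusted p = 0.00238), and in glutamine-only against deficient cells, 1.28 ± 0.23 (adjusted p = 4.66e-05). It fell in deficient against full cells, -1.60 ± 0.23 (adjusted p = 8.70e-07). Its lower call in glucose-only against full cells, -0.72 ± 0.23 (adjusted p = 0.02002), did not hold without glucose-only B, full A or full B (adjusted p = 0.0618 to 0.0818) or with DESeq2 (adjusted p = 0.0794). Opposite-strand genes cover 14.95%, 14.8% and 18.6% of the exonic bases of HMGCS1, IDI1 and FDPS, and whether reads were counted by strand is not given in the sources used here.

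ACAT2 (ENSG00000120437, chromosome 6, 159762045 to 159779112), the cytosolic thiolase that starts the route, had normalized counts of 5.21, 7.24 and 4.66 in deficient, 9.64, 2.096 and 10.6 in glucose-only, 15.3, 11.6 and 13.05 in glutamine-only and 28.4, 24.4 and 19.3 in full libraries. The full libraries were highest, the glutamine-only libraries next, and the 2 media without glutamine overlapped. ACAT2 reached 10 in 7 libraries, all those with glutamine among them. It would not have been tested without these, so its differences from media with glutamine are a description. ACAT2 fell in deficient against full cells, -1.90 ± 0.39 (adjusted p = 0.000196), and in glucose-only against full cells, -1.77 ± 0.39 (adjusted p = 0.00142). Its higher call in glutamine-only against deficient cells, 1.10 ± 0.39 (adjusted p = 0.0255), did not hold without deficient A, deficient C, glutamine-only A or glutamine-only C (adjusted p = 0.0555 to 0.0845) or with quantile normalization (adjusted p = 0.0861). In glutamine-only against full cells ACAT2 was at -0.80 ± 0.39 (adjusted p = 0.154), and it passed with a pseudocount of 8, a fit on the 2 media alone or edgeR (adjusted p = 0.0198 to 0.0445). In glucose-only against glutamine-only cells it was at -0.97 ± 0.39 (adjusted p = 0.105), and it passed without glucose-only C (adjusted p = 0.0473). A gene on the other strand covers 52.3% of the exonic bases of ACAT2, so part of its reads may belong to that gene. MVK (ENSG00000110921, chromosome 12, 109573272 to 109598125), the mevalonate kinase, had normalized counts of 5.21, 16.9 and 10.9 in deficient, 10.8, 13.6 and 7.05 in glucose-only, 28.9, 18.3 and 27.03 in glutamine-only and 22.5, 17.9 and 19.3 in full libraries. All 6 libraries with glutamine were above all 6 without, on few reads. MVK was called lower in deficient against full cells, -0.92 ± 0.33 (adjusted p = 0.02199), but not without deficient A or full A (adjusted p = 0.197 and 0.0794) or with DESeq2 (adjusted p = 0.0657). In glucose-only against full cells it missed the threshold, -0.90 ± 0.33 (adjusted p = 0.0518), and it passed without deficient A, deficient B or glucose-only B (adjusted p = 0.0234 to 0.0391) or with equal totals, quantile normalization, a pseudocount of 8, a fit on the 2 media alone or edgeR (adjusted p = 0.008996 to 0.0398). It was called higher in glutamine-only against deficient cells, 1.21 ± 0.33 (adjusted p = 0.00486), but not without deficient A (adjusted p = 0.0534).

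PMVK, the phosphomevalonate kinase, lay between 9.11 and 18.3 over the 12 libraries, and all 4 media overlapped. It passed the threshold in none of the 6 comparisons, the nearest being deficient against full at -0.34 ± 0.29 (adjusted p = 0.3395), which passed with equal totals (adjusted p = 0.0486). MVD, the mevalonate diphosphate decarboxylase, lay between 4.703 and 11.9 and reached 10 in only 4 libraries. It was at -0.83 ± 0.35 (adjusted p = 0.088000) in glucose-only against full cells, and it passed with equal totals (adjusted p = 0.0381).

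Of the 3 genes from squalene to lanosterol only SQLE, the squalene epoxidase, had enough signal to be tested. SQLE (ENSG00000104549, chromosome 8) had normalized counts of 14.3, 9.66 and 13.2 in deficient, 9.64, 6.29 and 4.703 in glucose-only, 32.5, 31.8 and 25.2 in glutamine-only and 21.8, 24.4 and 30.3 in full libraries. All 6 libraries with glutamine were above all 6 without, and the deficient libraries were just above the glucose-only ones. SQLE reached 10 in 8 libraries, all those with glutamine among them. It would not have been tested without these, so its differences from media with glutamine are a description. SQLE fell in deficient against full cells, -0.99 ± 0.29 (adjusted p = 0.00483), and in glucose-only against full cells, -1.79 ± 0.29 (adjusted p = 2.77e-05), and rose in glutamine-only against deficient cells, 1.21 ± 0.29 (adjusted p = 0.00121). Its lower call in glucose-only against deficient cells, -0.80 ± 0.29 (adjusted p = 0.0253), did not hold without deficient A, deficient C, glucose-only B or glucose-only C (adjusted p = 0.0554 to 0.119) or with equal totals, a pseudocount of 8, a fit on the 2 media alone, edgeR or DESeq2 (adjusted p = 0.05098 to 0.168). FDFT1, the squalene synthase, lay between 1.21 and 7.34, and LSS, the lanosterol synthase, between 0 and 9.02, with 10 reads over the deficient, 9 over the glucose-only, 27 over the glutamine-only and 23 over the full libraries. Neither reached 10 in any library, and no change is given for them.

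The 8 genes from lanosterol to cholesterol summed to 151 ± 5.94 in deficient, 145 ± 13.4 in glucose-only, 432 ± 23.5 in glutamine-only and 384 ± 27.8 in full libraries, and 7 of them were tested. Against full cells 5 fell in deficient and 6 in glucose-only cells, beside 25.5% and 13.5% of all genes, and 6 rose in glutamine-only against deficient cells, beside 19.9%. EBP is in each of these counts, TM7SF2 in the fall in glucose-only cells and HSD17B7 in the rise. None of them would have passed the filter without the libraries with glutamine. DHCR7 (ENSG00000172893, chromosome 11, 71427287 to 71449043) encodes the 7-dehydrocholesterol reductase of the last step. DHCR7 had normalized counts of 14.3, 24.1 and 20.2 in deficient, 9.64, 13.6 and 7.05 in glucose-only, 100.1, 79.9 and 89.5 in glutamine-only and 70.7, 71.4 and 65.1 in full libraries. The 4 media did not overlap and stood in the order of INSIG1, glucose-only lowest, then deficient, full and glutamine-only. It was 6.498-fold lower in glucose-only than in full cells, -2.70 ± 0.21 (adjusted p = 1.12e-10), and 8.39-fold lower in glucose-only than in glutamine-only cells, -3.07 ± 0.21 (adjusted p = 7.49e-12). DHCR7 fell in deficient against full cells, -1.80 ± 0.21 (adjusted p = 5.21e-08), and in glucose-only against deficient cells, -0.90 ± 0.21 (adjusted p = 0.00121), and rose in glutamine-only against deficient cells, 2.17 ± 0.21 (adjusted p = 3.84e-09). In glutamine-only against full cells it was at 0.37 ± 0.21 (adjusted p = 0.236), and it passed with a fit on the 2 media alone or edgeR (adjusted p = 0.0327 and 0.0234).

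MSMO1 (ENSG00000052802, chromosome 4, 165327669 to 165343164), the C4-methylsterol oxidase, had normalized counts of 28.6, 26.6 and 22.5 in deficient, 21.7, 28.3 and 10.6 in glucose-only, 117, 127 and 133 in glutamine-only and 95.9, 88.4 and 120.2 in full libraries. All 6 libraries with glutamine were far above all 6 without, while deficient overlapped glucose-only and glutamine-only overlapped full. MSMO1 was 5.15-fold lower in glucose-only than in full cells, -2.36 ± 0.22 (adjusted p = 1.96e-09), 3.79-fold lower in deficient than in full cells, -1.92 ± 0.22 (adjusted p = 1.66e-08), and 4.73-fold higher in glutamine-only than in deficient cells, 2.24 ± 0.22 (adjusted p = 2.22e-09). In glucose-only against deficient cells it was at -0.44 ± 0.22 (adjusted p = 0.101), and it passed without glucose-only B (adjusted p = 0.00855). SC5D (ENSG00000109929, chromosome 11, 121292771 to 121313410), the lathosterol oxidase, had normalized counts of 41.7, 37.4 and 54.4 in deficient, 36.1, 50.3 and 41.2 in glucose-only, 102, 106 and 123 in glutamine-only and 91.9, 73.3 and 89.9 in full libraries. The glutamine-only libraries were highest, the full libraries next, and the 2 media without glutamine overlapped below both. SC5D fell in deficient against full cells, -0.93 ± 0.16 (adjusted p = 1.35e-05), and in glucose-only against full cells, -0.99 ± 0.16 (adjusted p = 2.51e-05), and rose in glutamine-only against deficient cells, 1.30 ± 0.16 (adjusted p = 1.35e-07). SC5D was at 0.37 ± 0.16 (adjusted p = 0.0871) in glutamine-only against full cells, and it passed with quantile normalization, a fit on the 2 media alone or edgeR (adjusted p = 0.0237 to 0.0342).

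LBR and TM7SF2 encode the pair of C14-sterol reductases, and LBR is also a protein of the inner nuclear membrane. LBR (ENSG00000143815, chromosome 1, 225401502 to 225428821) had normalized counts of 40.4, 36.2 and 34.9 in deficient, 60.2, 56.6 and 51.7 in glucose-only, 64.04, 67.4 and 70.8 in glutamine-only and 80.7, 86.5 and 88.98 in full libraries. The 4 media did not overlap, with deficient lowest, then glucose-only, glutamine-only and full. LBR fell in deficient against full cells, -1.18 ± 0.14 (adjusted p = 3.28e-08), and in glucose-only against full cells, -0.60 ± 0.14 (adjusted p = 0.00195). It rose against deficient cells with glucose alone, 0.58 ± 0.14 (adjusted p = 0.00108), and with glutamine alone, 0.84 ± 0.14 (adjusted p = 1.53e-05). LBR was at -0.34 ± 0.14 (adjusted p = 0.0786) in glutamine-only against full cells, and it passed with a fit on the 2 media alone or edgeR (adjusted p = 0.0433 and 0.0421). TM7SF2 (ENSG00000149809, chromosome 11, 65111872 to 65116230) had normalized counts of 16.9, 18.1 and 8.54 in deficient, 6.02, 6.29 and 9.41 in glucose-only, 11.7, 10.6 and 8.39 in glutamine-only and 19.2, 12.2 and 17.4 in full libraries. The full libraries were above those of either single nutrient and overlapped the deficient libraries. TM7SF2 reached 10 in 7 libraries, and would not have been tested without those with glutamine. TM7SF2 was called lower in glucose-only against full cells, -1.07 ± 0.34 (adjusted p = 0.0209), but not without glucose-only A, glucose-only B, full A or full C (adjusted p = 0.0631 to 0.0929) or with DESeq2 (adjusted p = 0.0786). It was called lower in glucose-only against deficient cells, -0.87 ± 0.34 (adjusted p = 0.0368), but not without deficient A, deficient B, glucose-only A or glucose-only B (adjusted p = 0.09502 to 0.147) or with equal totals, no filter, a fit on the 2 media alone, edgeR or DESeq2 (adjusted p = 0.0536 to 0.137).

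EBP (ENSG00000147155, chromosome X, 48521808 to 48528716), the sterol isomerase, had normalized counts of 0, 7.24 and 3.88 in deficient, 4.82, 2.096 and 3.53 in glucose-only, 8.12, 10.6 and 15.8 in glutamine-only and 14.5, 10.3 and 18.3 in full libraries. All 6 libraries with glutamine were above all 6 without, and 1 deficient library held no read. EBP reached 10 in only 5 libraries, all of them with glutamine, so it was tested only because it was high there, and its changes are a description. It fell in deficient against full cells, -2.13 ± 0.53 (adjusted p = 0.00135). EBP was called lower in glucose-only against full cells, -1.79 ± 0.53 (adjusted p = 0.0142), but not without glucose-only B or full C (adjusted p = 0.06605 and 0.0641). It was called higher in glutamine-only against deficient cells, 1.82 ± 0.53 (adjusted p = 0.00705), but not without deficient A (adjusted p = 0.0949). In glucose-only against glutamine-only cells it was at -1.48 ± 0.53 (adjusted p = 0.0621), and it passed without deficient A or deficient B (adjusted p = 0.0101 and 0.0357) or with equal totals, a pseudocount of 8, no filter, a fit on the 2 media alone or edgeR (adjusted p = 0.0174 to 0.0437). HSD17B7 (ENSG00000132196, chromosome 1, 162790702 to 162812823), the 3-ketosterol reductase, had normalized counts of 2.603, 1.21 and 10.1 in deficient, 3.61, 2.096 and 5.88 in glucose-only, 12.6, 14.4 and 14.9 in glutamine-only and 12.6, 8.46 and 4.59 in full libraries. The glutamine-only libraries were highest, the other 3 media overlapped, and 5 libraries reached 10, the 3 glutamine-only libraries among them. HSD17B7 was thus tested only because it was high there, and a difference from that medium is a description: it was at 1.75 ± 0.49 (adjusted p = 0.00524) in glutamine-only against deficient cells. Its lower call in glucose-only against glutamine-only cells, -1.70 ± 0.49 (adjusted p = 0.0185), did not hold without glucose-only B, glutamine-only B or glutamine-only C (adjusted p = 0.0638 to 0.0962). In deficient against full cells HSD17B7 was at -1.01 ± 0.49 (adjusted p = 0.0855), and it passed without deficient C or full C (adjusted p = 0.00594 and 0.0397) or with equal totals (adjusted p = 0.0181). CYP51A1, the lanosterol demethylase, lay between 0 and 6.61, was not tested, and shares 79.4% of its exonic bases with a gene on the same strand.

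The genes of sterol transport, storage and efflux split. STARD4, which ferries cholesterol between membranes inside the cell, was highest with glutamine, while MYLIP, ABCA1 and SOAT1 were highest in deficient cells. STARD4 (ENSG00000164211, chromosome 5, 111496033 to 111512535) had normalized counts of 20.8, 25.4 and 27.95 in deficient, 8.43, 11.5 and 8.23 in glucose-only, 100.1, 102 and 107 in glutamine-only and 61.5, 64.9 and 72.5 in full libraries. The 4 media did not overlap and stood in the order of INSIG1 and DHCR7. It was 6.52-fold lower in glucose-only than in full cells, -2.71 ± 0.18 (adjusted p = 2.98e-12), and 10.1-fold lower in glucose-only than in glutamine-only cells, -3.34 ± 0.18 (adjusted p = 2.21e-14). STARD4 fell in deficient against full cells, -1.39 ± 0.18 (adjusted p = 2.46e-07), and in glucose-only against deficient cells, -1.31 ± 0.18 (adjusted p = 1.19e-06), and rose in glutamine-only against deficient cells, 2.03 ± 0.18 (adjusted p = 5.77e-10). It was called higher in glutamine-only against full cells, 0.63 ± 0.18 (adjusted p = 0.0115), but not without glutamine-only C or full A (adjusted p = 0.0521 and 0.0583) or with equal totals (adjusted p = 0.0779).

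MYLIP (ENSG00000007944, chromosome 6, 16129086 to 16163887) encodes IDOL, an LXR-induced ubiquitin ligase that marks lipoprotein receptors for degradation. MYLIP had normalized counts of 113, 101 and 125 in deficient, 26.5, 29.3 and 23.5 in glucose-only, 38.8, 43.3 and 36.4 in glutamine-only and 19.8, 18.8 and 19.3 in full libraries. The 4 media did not overlap, with deficient far above glutamine-only, then glucose-only, then full. Its mean was 113 ± 11.8 in deficient and 19.3 ± 0.519 in full cells (SD, n = 3 each). In the fit on log2(normalized count + 1) this was 5.61-fold higher in deficient cells, 2.49 ± 0.17 (adjusted p = 5.06e-13). MYLIP fell against deficient cells with glucose alone, -2.06 ± 0.17 (adjusted p = 6.35e-11), and with glutamine alone, -1.50 ± 0.17 (adjusted p = 3.92e-08). It rose in glutamine-only against full cells, 0.99 ± 0.17 (adjusted p = 5.14e-05). MYLIP was at 0.43 ± 0.17 (adjusted p = 0.0636) in glucose-only against full cells, and it passed without glucose-only C (adjusted p = 0.0495) or with quantile normalization or protein-coding size factors (adjusted p = 0.0497 and 0.0379). Its lower call in glucose-only against glutamine-only cells, -0.56 ± 0.17 (adjusted p = 0.0229), did not hold without glucose-only C, glutamine-only A or glutamine-only B (adjusted p = 0.0519 to 0.104) or with no filter, edgeR or DESeq2 (adjusted p = 0.0525 to 0.223).

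ABCA1 (ENSG00000165029, chromosome 9, 104781006 to 104928155), the LXR-induced pump that exports cholesterol, had normalized counts of 49.5, 27.8 and 49.7 in deficient, 24.1, 14.7 and 15.3 in glucose-only, 22.6, 25.04 and 25.2 in glutamine-only and 11.9, 10.3 and 9.17 in full libraries. The deficient libraries were above and the full libraries below all others, and the media of either single nutrient overlapped. ABCA1 was 3.67-fold higher in deficient than in full cells, 1.88 ± 0.26 (adjusted p = 6.74e-07), and rose in glutamine-only against full cells, 1.14 ± 0.26 (adjusted p = 0.00159). It fell in glucose-only against deficient cells, -1.17 ± 0.26 (adjusted p = 0.000579). Its lower call in glutamine-only against deficient cells, -0.73 ± 0.26 (adjusted p = 0.0249), did not hold without deficient A, deficient C, glutamine-only A or glutamine-only B (adjusted p = 0.0516 to 0.122) or with equal totals (adjusted p = 0.189). ABCA1 was at 0.70 ± 0.26 (adjusted p = 0.0506) in glucose-only against full cells, and it passed without deficient B or glucose-only B (adjusted p = 0.0351 and 0.0445) or with quantile normalization, a pseudocount of 0.5, a replicate block or protein-coding size factors (adjusted p = 0.0371 to 0.0493). SOAT1 (ENSG00000057252, chromosome 1, 179293797 to 179358680), the enzyme that esterifies cholesterol for storage, had normalized counts of 108, 104 and 116 in deficient, 57.8, 74.4 and 59.97 in glucose-only, 80.3, 83.8 and 64.3 in glutamine-only and 74.7, 60.2 and 74.3 in full libraries. The deficient libraries were above all others, and the other 3 media overlapped. SOAT1 fell in glucose-only against deficient cells, -0.77 ± 0.14 (adjusted p = 5.43e-05). It was called higher in deficient against full cells, 0.65 ± 0.14 (adjusted p = 0.000305), but not with equal totals (adjusted p = 0.212). It was called lower in glutamine-only against deficient cells, -0.53 ± 0.14 (adjusted p = 0.00341), but not with equal totals (adjusted p = 0.251).

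ABCG1, another LXR-induced sterol exporter, had normalized counts of 0, 0 and 0.776 in deficient, 0, 2.096 and 5.88 in glucose-only, 0.902, 6.74 and 3.73 in glutamine-only and 0.661, 0 and 0 in full libraries. These are the values of 1 read over the deficient, 7 over the glucose-only, 12 over the glutamine-only and 1 over the full libraries, and no change is given. NR1H2, which encodes LXR beta, lay between 25.3 and 46.9 and passed the threshold in none of the 6 comparisons, with changes between -0.39 and 0.20. NR1H3, which encodes LXR alpha, lay between 2.41 and 11.9 and was not tested.

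**Figure D4:**
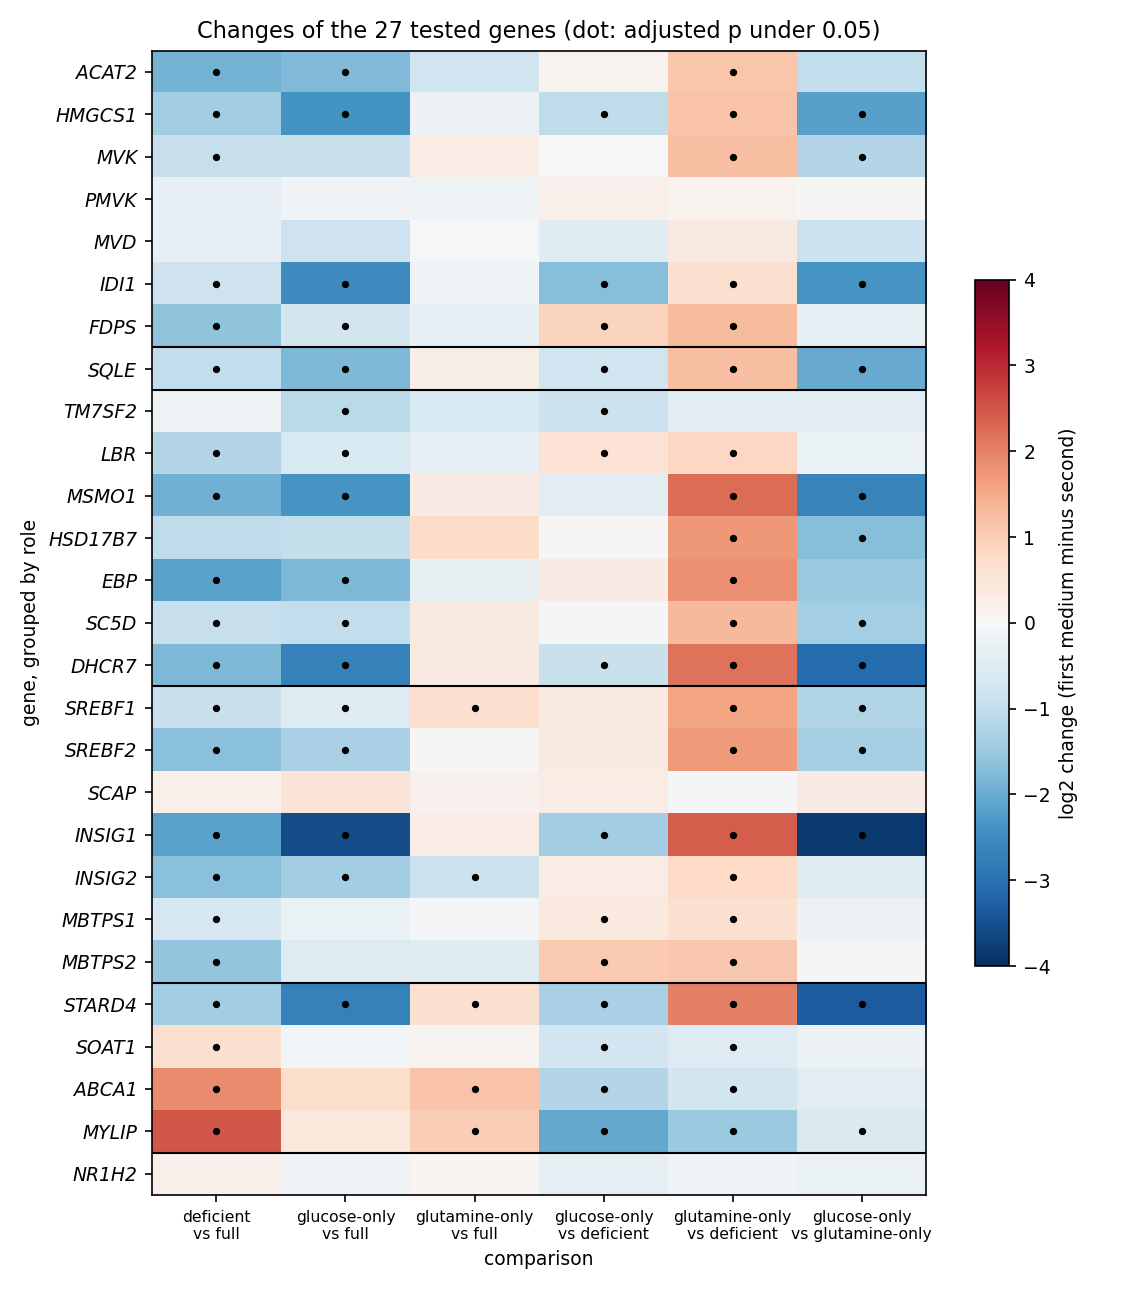
Log2 change (colour, red higher and blue lower in the first-named medium) of the 27 tested genes (rows, grouped by role) in the 6 comparisons of media (columns); a dot marks an adjusted p under 0.05. The columns of glucose-only against full and of glucose-only against glutamine-only hold dots on blue alone, 16 and 13 of them, and the column of glutamine-only against full holds 5 dots.

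Read by comparison, most of the genes fell without both nutrients. In deficient against full cells 18 of the 27 tested genes fell and 3 rose, beside 25.5% and 26.3% of all 9270 genes, and their median change was -0.99, beside 0.01 over all genes. Of the 15 tested synthesis enzymes 11 fell and none rose, with EBP at -2.13, MSMO1 at -1.92 and ACAT2 at -1.90. Among the 11, EBP, ACAT2 and SQLE would not have passed the filter without the libraries with glutamine, so their falls are a description. The 3 genes that rose were SOAT1, ABCA1 and MYLIP. With each library left out in turn, 20 to 22 of the 27 were called in either direction. Without the filter, with all 32 genes in the fit, 19 fell and 3 rose.

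With glucose present, 11 of the 15 tested synthesis enzymes, 4 of the 7 sensing genes and 1 of the 4 tested transport genes, STARD4, fell without glutamine, and none of the 27 rose, beside 13.5% lower and 9.44% higher over all genes. In glucose-only against full cells the median change of the 27 was -0.96, beside -0.03 over all genes. The 16 that fell were ACAT2, HMGCS1, IDI1, FDPS, SQLE, TM7SF2, LBR, MSMO1, EBP, SC5D, DHCR7, SREBF1, SREBF2, INSIG1, INSIG2 and STARD4. Of these, ACAT2, SQLE, TM7SF2 and EBP would not have passed the filter without the libraries with glutamine. With each library left out in turn 13 to 18 were called, and EBP, FDPS, SREBF1 and TM7SF2 were those that depended on single libraries, with the values given above. Without the filter 15 of the 32 genes fell and none rose. SCAP, ABCA1 and MYLIP, at 0.50, 0.70 and 0.43, were called higher with quantile normalization and with protein-coding size factors (adjusted p = 0.0371 to 0.0497). At adjusted p under 0.05 edgeR called 17 and DESeq2 13 of the 27, all lower.

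Where only glucose was missing, no tested synthesis enzyme was called. In glutamine-only against full cells none of the 15 tested enzymes passed, their changes ran between -0.80 and 0.74, and the median of the 27 was 0.07, beside -0.01 over all genes. INSIG2 fell, and SREBF1, STARD4, ABCA1 and MYLIP rose, beside 11.6% lower and 10.8% higher over all genes. These 5 of the 27 are a share near the 2083 called of 9270 genes, so the count says nothing particular to these genes. A fit on the 2 media alone and edgeR each called 10 of the 27, adding ACAT2 and LBR as lower and SC5D, DHCR7 and INSIG1 as higher, so the count of this comparison depends on the test. Of all 9270 genes they called 2361 and 2447.

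Against deficient cells most of the genes rose with glutamine alone, and with glucose alone the calls went both ways. In glutamine-only against deficient cells the median change of the 27 was 1.10, beside -0.01 over all genes, and 12 of the 15 tested enzymes rose, led by MSMO1 at 2.24 and DHCR7 at 2.17. Among the 12, ACAT2, SQLE, EBP and HSD17B7 would not have passed the filter without the libraries with glutamine. The 3 genes that fell were SOAT1, ABCA1 and MYLIP. With each library left out in turn 18 to 22 of the 27 were called, and without the filter 20 of the 32 rose and 3 fell. In glucose-only against deficient cells 10 of the 27 fell and 4 rose, beside 23.2% and 20.1% of all genes, with a median of -0.06, beside -0.00. Those that fell were HMGCS1, IDI1, SQLE, TM7SF2, DHCR7, INSIG1, STARD4, SOAT1, ABCA1 and MYLIP, and those that rose were FDPS, LBR, MBTPS1 and MBTPS2. Within the synthesis enzymes the calls went both ways, with 5 lower and 2 higher of 15. With each library left out 11 to 14 of the 27 were called, and the calls of SQLE, TM7SF2, MBTPS1 and MBTPS2 depended on single libraries, with the values given above.

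With a single nutrient in the medium, glucose went with lower levels than glutamine. In glucose-only against glutamine-only cells 13 of the 27 fell and none rose, beside 8.26% and 5.05% of all genes, and the median was -0.97, beside -0.00 over all genes. Among the 13, SQLE and HSD17B7 would not have passed the filter without the libraries with glutamine. INSIG1 was 14.3-fold lower in glucose-only cells, -3.84 ± 0.16 (adjusted p = 4.21e-17). HMGCS1 was at -2.17 ± 0.19 (adjusted p = 1.41e-09), IDI1 at -2.35 ± 0.16 (adjusted p = 5.65e-12), SQLE at -2.01 ± 0.29 (adjusted p = 8.03e-06), MSMO1 at -2.68 ± 0.22 (adjusted p = 1.90e-10) and SC5D at -1.36 ± 0.16 (adjusted p = 2.39e-07). SREBF1 was at -1.21 ± 0.18 (adjusted p = 1.19e-05) and SREBF2 at -1.34 ± 0.16 (adjusted p = 3.87e-07). MVK was called lower, -1.18 ± 0.33 (adjusted p = 0.0167), but not without glucose-only C, glutamine-only A or glutamine-only C (adjusted p = 0.0715 to 0.0977). With each library left out in turn 11 to 14 of the 27 were called.

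The effect of glutamine can be read in separate libraries, with glucose (glucose-only against full) and without it (glutamine-only against deficient). Of the 24 tested genes that averaged 10 or more, 14 (58.3%) were called higher with glutamine in both comparisons, beside 477 of 8349 genes (5.71%). None was called lower with glutamine in both, beside 311 of all genes (3.72%). Among the 14, ACAT2 and SQLE would not have passed the filter without the libraries with glutamine. The direction was the same in 21 of the 24 (87.5%) and in 56.5% of all genes. Across the 24 genes the glutamine effects in the 2 sets had Pearson's r of 0.77 and Spearman's rho of 0.73, beside 0.25 and 0.22 over all genes, as a description of these genes, which are not independent. In 13 of the 24 (54.2%) all 6 libraries with glutamine stood above all 6 without, beside 325 of all genes (3.89%). In none did they all stand below, beside 165 (1.98%). ACAT2 and SQLE are among the 13 too, with the limit of the filter given above. The same reading of glucose, in glutamine-only against full and glucose-only against deficient cells, found none of the 24 higher with glucose in both, beside 5.34% of all genes. It found 3 (12.5%) lower with glucose in both, beside 5.57%, and these were STARD4, ABCA1 and MYLIP. The direction of the glucose effects was the same in 17 of the 24 (70.8%) and in 57.7% of all genes. Across the 24 genes they had Pearson's r of 0.49 and Spearman's rho of 0.47, beside 0.35 and 0.26 over all genes.

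**Figure D5:**
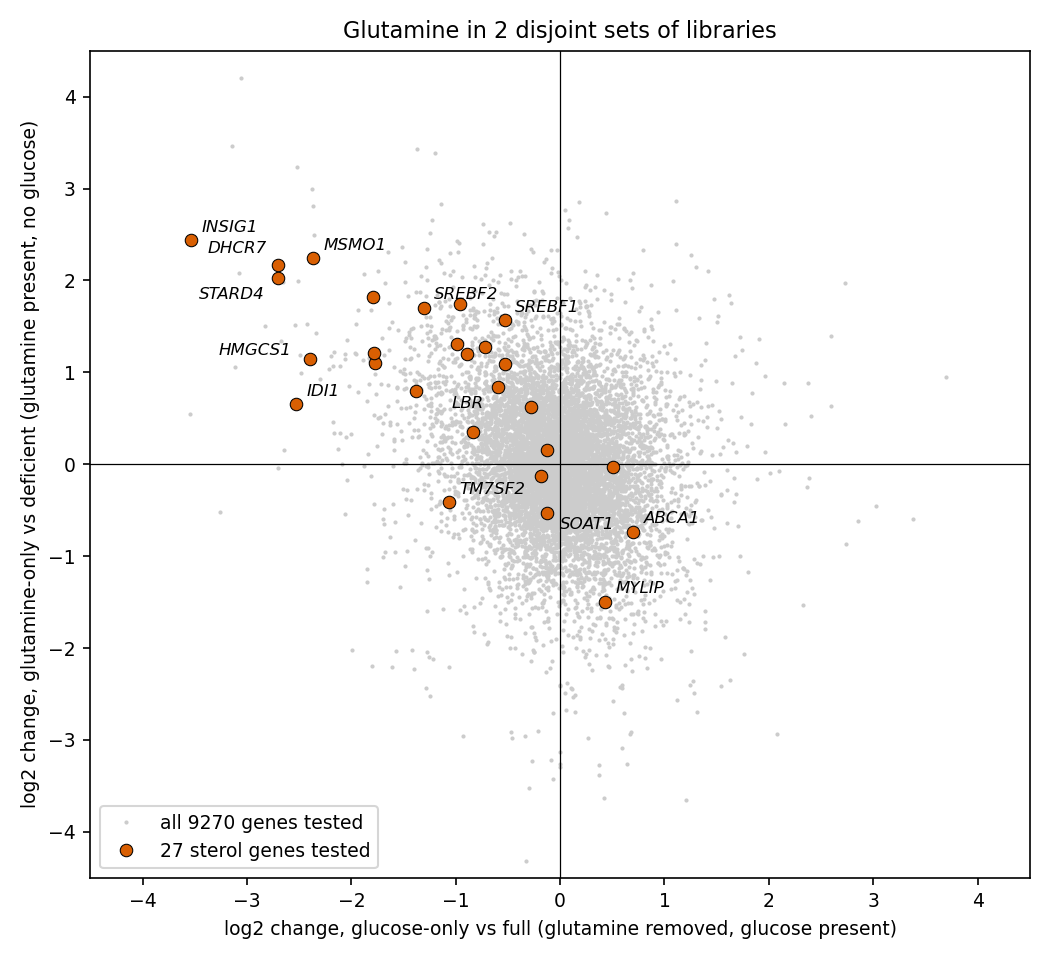
Log2 change in glucose-only against full cells (x axis, below 0 where the gene is higher with glutamine) and in glutamine-only against deficient cells (y axis, above 0 where it is higher with glutamine), which share no library; orange points are the 27 tested genes and grey points all 9270, 1 of which lies outside the axes. INSIG1, DHCR7, STARD4 and MSMO1 stand at the upper left, and SOAT1, TM7SF2, ABCA1 and MYLIP lie below 0 on the y axis.

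Whether the glutamine effect depends on glucose was tested as the interaction, the effect with glucose minus the effect without it. Of the 27 genes 7 were called, a share near the 26.5% of all genes, so the count says nothing particular to these genes. Of the 7 calls 6 were positive, beside 1438 of the 2458 calls over all genes. The glutamine effect was larger with glucose than without for HMGCS1, 1.25 ± 0.27 (adjusted p = 0.000961), IDI1, 1.88 ± 0.23 (adjusted p = 4.04e-07), and INSIG1, 1.10 ± 0.22 (adjusted p = 0.000496). For IDI1 this means a change of 0.66 in glutamine-only against deficient cells and of -2.53 in glucose-only against full cells, where the sign is that of withdrawal. SREBF1 was called the other way, -1.04 ± 0.25 (adjusted p = 0.002497). MYLIP was at 1.06 ± 0.24 (adjusted p = 0.00124): it fell in glutamine-only against deficient cells, and its change in glucose-only against full cells missed the threshold. TM7SF2 was called, 1.48 ± 0.48 (adjusted p = 0.0208), but not without deficient A, deficient B, glutamine-only C or full A (adjusted p = 0.0514 to 0.0598) or with DESeq2 (adjusted p = 0.0691). TM7SF2 would not have passed the filter without the libraries with glutamine, so its interaction is a description. SOAT1 was called, 0.65 ± 0.20 (adjusted p = 0.0149), but not without glutamine-only C (adjusted p = 0.0559) or with equal totals, quantile normalization, no filter or DESeq2 (adjusted p = 0.0602 to 0.194). STARD4 missed the threshold, 0.68 ± 0.26 (adjusted p = 0.0507), and passed without deficient A or glucose-only B (adjusted p = 0.0256 and 0.0185) or with a pseudocount of 0.5 (adjusted p = 0.0421). SREBF2 was at -0.40 ± 0.22 (adjusted p = 0.196) and passed without deficient B (adjusted p = 0.0374), and MBTPS1 was at -0.35 ± 0.21 (adjusted p = 0.228) and passed with quantile normalization (adjusted p = 0.0467). The median of the 27 was 0.12, beside 0.06 over all genes, and 5 to 8 of the 27 were called with each library left out in turn.

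Neighbouring gene lists were counted in the same fit. Of 15 tested SREBP-responsive fatty acid genes, 9 fell in glucose-only against full cells and none rose, and 11 rose and 1 fell in glutamine-only against deficient cells. Of all tested genes 13.5% fell and 9.44% rose in the comparison with full cells, and 19.9% rose and 21.6% fell in that with deficient cells. Without glutamine, in glucose-only against full cells, the stearoyl-CoA desaturase SCD was at -2.38, the desaturase FADS2 at -2.36 and the citrate carrier SLC25A1 at -1.52. SLC25A1 is counted here, but would not have passed the filter without the libraries with glutamine. Its differences between media with and without glutamine are a description. The median change of the 15 tested fatty acid genes was -0.73 in glucose-only against full and 0.89 in glutamine-only against deficient cells. For the 15 tested synthesis enzymes it was -1.07 and 1.21.

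Of 17 tested genes of sterol uptake, transfer and oxidation, 4 fell in glucose-only against full cells and none rose, beside 13.5% and 9.44% of all genes. They included LIPA, the lysosomal lipase, at -1.20 (adjusted p = 0.00394), LRP8, a lipoprotein receptor, at -1.11 (adjusted p = 0.00556), and SCP2, a sterol carrier protein, at -0.98 (adjusted p = 7.79e-06). LIPA would not have passed the filter without the libraries with glutamine. Its differences between media with and without glutamine are a description. In glutamine-only against deficient cells 6 of the 17 rose and 2 fell, beside 19.9% and 21.6%. Of 9 tested genes of SREBP processing and sterol-regulated degradation, 3 fell and none rose in glucose-only against full cells, namely the ubiquitin ligase RNF145 at -0.63 (adjusted p = 0.00235), the segregase VCP at -0.39 (adjusted p = 0.00458) and PGRMC1 at -0.42 (adjusted p = 0.0375), beside the same shares of all genes. The isoprenoid branch draws farnesyl and geranylgeranyl units off the same route. Of 13 tested genes of that branch none fell in glucose-only against full cells and 2 rose, DHDDS of dolichol synthesis at 0.87 (adjusted p = 0.00858) and the prenyltransferase subunit FNTA at 0.71 (adjusted p = 0.0156), beside those shares again. Of 8 other LXR-responsive genes and partners only RXRA, the partner of the LXRs, was tested, at 0.05 (adjusted p = 0.875) in that comparison. RXRA fell in deficient against full cells, -1.48 ± 0.18 (adjusted p = 1.08e-07), rose against deficient cells with glucose alone, 1.54 ± 0.18 (adjusted p = 1.12e-07), and with glutamine alone, 1.49 ± 0.18 (adjusted p = 2.39e-07), and was called in the interaction, -1.54 ± 0.26 (adjusted p = 5.75e-05).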

How the data were processed

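RNA-seq was measured in 12 libraries, 3 for each of 4 media, and the authors deposited 1 table of normalized counts, a signal per gene with 63187 genes. Per the submitters' processing notes, FastQC, HISAT2, Subread and DESeq2 were used with build GRCh38.p14; the settings and the use of strand are not given in the sources used here. Dividing by the value of 1 read gave whole reads, within 0.01 reads, for 100% of the values of each library, and the count tests used these reads. As the values are normalized, limma 3.58.1 in R 4.3.3 was the main test, on log2(value + 1) with a mean-variance trend, 1 fit over 12 libraries and Benjamini-Hochberg adjustment over the 9270 genes that reached 10 in 3 or more libraries. On the recovered reads edgeR 4.0.16 called 5008 of these genes in deficient against full cells, beside 4804 by limma. The limma step was tested on simulated data.

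Each library holds 875033 to 1473587 reads, which sets the precision of low genes. Libraries of a medium differed by more than sampling noise, with a chi-square of 1.15 to 4.92 per degree of freedom, so none was counted as a duplicate. Alternatives were equal totals, quantile normalization, a pseudocount of 8 or of 0.5, testing unfiltered genes or only genes with a mean of 100 or more, a replicate block, the compared media alone, edgeR, DESeq2 1.42.0, each library left out and an adjusted p under 0.01. A scaling by nuclear protein-coding genes was chosen after seeing the data. All 32 genes are named, and full values are given for those past the threshold in 2 or more comparisons and for SREBF1, SREBF2, SCAP, INSIG1, INSIG2, ABCA1, ABCG1 and MYLIP. From each neighbouring list up to 3 genes are named, those with the greatest change among the genes called in glucose-only against full cells. The genes and lists were chosen with earlier results of these data known. Some cholesterol genes are not reported here.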

Additional observations from a re-analysis of the deposited data

Results flagged for a closer look

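The difference between the glutamine effect with glucose (full minus glucose-only) and without it (glutamine-only minus deficient) passed the threshold of the limma interaction test, Benjamini-Hochberg adjusted over 9270 genes, for 7 of the 27 tested genes, a share near the 26.5% of all genes. It was 1.25 for HMGCS1, 1.88 for IDI1, 1.48 for TM7SF2, 1.10 for INSIG1, 0.65 for SOAT1 and 1.06 for MYLIP, and -1.04 for SREBF1, in log2 units. The call of TM7SF2 ended without deficient A, deficient B, glutamine-only C or full A (adjusted p = 0.0514 to 0.0598), and that of SOAT1 without glutamine-only C (adjusted p = 0.0559). TM7SF2 would also not have passed the filter without the libraries with glutamine. The shares of protein-coding and mitochondrial reads also moved with the media, and their part in these differences was not tested beyond the scalings given with the results.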

How the results depend on the processing

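No call of the 27 genes turned its direction under any alternative run. With a mean of at least 100, where 1213 genes and, of the sterol genes, only INSIG1 were tested, 1 sterol gene was called in each comparison and in the interaction, except 0 in glutamine-only against full cells. In that setting 903 of all genes were called in deficient, 615 in glucose-only and 624 in glutamine-only against full cells, 776 in glucose-only and 777 in glutamine-only against deficient cells, 486 in glucose-only against glutamine-only cells and 632 in the interaction. In glutamine-only against full cells 10 sterol genes were called with the compared media alone and 10 with edgeR, against 5. Of all genes 2361 and 2447 were called there, against 2083. With DESeq2, all genes called were 1255 in glucose-only against full cells, 604 in glucose-only against glutamine-only cells and 1495 in the interaction. With an adjusted p under 0.01 they were 1245 and 1276 in glucose-only and glutamine-only against full cells, 656 in glucose-only against glutamine-only cells and 1496 in the interaction. The cause was not tested beyond these settings' own construction. The replicate block called 21, 17 and 5 sterol genes in deficient, glucose-only and glutamine-only against full cells, 14 and 22 in glucose-only and glutamine-only against deficient cells, 13 in glucose-only against glutamine-only cells and 7 in the interaction. It added the higher call of ABCA1 in glucose-only against full cells (adjusted p = 0.0462). Same-lettered libraries did not deviate together (correlations -0.029 to 0.067 over 18 pairs, beside -0.073 to 0.039 over 36 other pairs), so the letters are not taken as pairs. With each library left out, all genes called were 4261 to 4844 in deficient, 1640 to 2225 in glucose-only and 1637 to 2194 in glutamine-only against full cells, 3488 to 3992 and 3236 to 3870 in glucose-only and glutamine-only against deficient cells, 849 to 1327 in glucose-only against glutamine-only cells and 2143 to 2443 in the interaction. The compared media alone give no interaction. At this depth FDFT1, LSS, CYP51A1, ABCG1 and NR1H3 were too low to test.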
